A study of Rattus norvegicus with 8 samples.

Results

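The genes described here are named as genes for the proteins of the ribosomes of a rat cell. They were found by symbol in the deposited expression table: Rpl, Rps or Rplp and a number, with or without a final a or x, for the cytosolic ribosome, and Mrpl or Mrps and a number, with or without a final a to d, for the mitochondrial ribosome. The rule found 147 of the 22228 named genes. The cytosolic class holds 72 genes, 44 of the large subunit and 28 of the small. It lacks Rpl35a, Rpl37a, Rps9 and Rps19, which are not among the named genes under that spelling. The mitochondrial class holds 75 genes, by their symbols 46 of the large subunit and 29 of the small. What each gene encodes was not checked beyond its symbol. All 72 cytosolic and 73 of the 75 mitochondrial genes reached the level needed for a test (TPM of at least 1 in at least 2 libraries), and the remaining 2, Mrpl28 and Mrpl53, were listed at 0 in all 8 libraries.

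A ribosome is a particle of ribosomal RNA and protein whose small subunit reads the message and whose large subunit joins amino acids. The cytosolic ribosome translates nearly all messages of a cell, and its protein genes are among the most strongly expressed genes of growing cells. Their messages typically begin with a C followed by a run of pyrimidines, the 5′ TOP motif, through which the growth regulator mTOR controls their translation. Mitochondrial ribosomes translate only the messages of the mitochondrial genome, yet all of their proteins come from nuclear genes and are imported.

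RNA sequencing covered 4 groups of wild-type strain Crlj:WI cells with 2 libraries each. Embryonic stem cells (ESC) grew on mouse embryonic fibroblast feeders with the MEK inhibitor PD0325901 at 1 µM, the GSK3 inhibitor CHIR99021 at 3 µM and rat LIF at 1000 U/ml. Epiblast-like cells (EpiLC), which resemble the epiblast after implantation, were cultured as aggregates over 60 h in medium with bFGF at 12 ng/ml, activin A at 20 ng/ml and 1% KSR. The group PGCLC_d3 holds primordial germ cell-like cells of day 3 under BMP4 at 500 ng/ml, LIF at 1000 U/ml, SCF at 100 ng/ml and EGF at 50 ng/ml, sorted for a Nanos3-T2A-tdTomato reporter; the genotype field nonetheless reads wild type. For PGCLC_d3ag3, 5000 such cells were aggregated with 50000 gonadal somatic cells, taken from female embryos at E15.5 and depleted of c-KIT+ cells, and the reporter-positive cells were sorted again after 3 days in N2B27 medium with 5% KSR. Whether the replicates are separate cultures is not stated, and p-values therefore cover the spread between these libraries only, which may be technical. In bulk RNA, fewer cells of a type and less RNA per cell cannot be told apart.

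Marker genes were checked against the labels. ESC markers summed to 1450 to 1465 TPM in ESC and 10.3 to 12.2 in EpiLC, where EpiLC markers reached 3147 to 3384. Most of that EpiLC sum was Dnmt3b (2666 and 2887 TPM). Otx2, Pou3f1 and Dnmt3a also had their highest group means in EpiLC (74.2, 214 and 200 TPM). The listed EpiLC marker Fgf5 was at 0.0747 and 0 TPM there. The PGCLC list summed to 1401 to 1421 TPM in PGCLC_d3, 1130 to 1154 in PGCLC_d3ag3 and 45.2 to 58.8 in EpiLC, but also to 1365 to 1368 in ESC, mostly from Dppa3, so its sum does not set the PGCLC groups apart from ESC. Its members Prdm1 (mean of 66.5 and 22.8 TPM in the PGCLC groups in turn) and Nanos3 (10.8 and 16.4) were under 1 TPM in ESC and EpiLC. The gonadal germ cell markers Ddx4 and Dazl summed to 967 to 1007 TPM in PGCLC_d3ag3, 1.62 to 1.69 in PGCLC_d3, 147 to 176 in EpiLC and 54.0 to 60.4 in ESC. Ddx4 made up most of the EpiLC sum, at 162 and 134 TPM against 204 and 201 in PGCLC_d3ag3. Among markers of other cells, the fibroblast list summed to 657 to 890 TPM in ESC, 254 to 282 in EpiLC, 65.3 to 67.4 in PGCLC_d3 and 46.5 to 51.6 in PGCLC_d3ag3, mostly from Fn1, with Thy1 at 0 in ESC. Against that sum, Dcn (mean of 0.274 TPM in ESC and 12.7 in EpiLC), Lum (0.0853 and 2.38), Col1a2 (2.77 and 14.8) and Col3a1 (9.66 and 22.1) rose from ESC to EpiLC. Between PGCLC_d3 and PGCLC_d3ag3, Postn (mean of 0.221 and 7.57 TPM), Dcn (0 and 1.35) and Col3a1 (0.505 and 3.51) also rose against the sum. Fn1 (61.7 and 35.5) and Col1a2 (2.69 and 0.563) fell there. The gonadal somatic list summed to 6.18 to 6.68 TPM in ESC, 17.3 to 18.1 in EpiLC, 7.61 to 8.73 in PGCLC_d3 and 13.0 to 18.0 in PGCLC_d3ag3. Its member Foxl2 was at 0 in ESC and EpiLC and at 0.289 and 0.461 TPM in PGCLC_d3ag3. From PGCLC_d3 to PGCLC_d3ag3 its members Wt1 (mean of 0.0505 and 1.22 TPM), Nr5a1 (0.0738 and 0.807), Amhr2 (0.414 and 4.00) and Gata4 (2.60 and 4.91) rose. Fst (mean of 4.9 and 4.13 TPM), Nr2f2 (0.0584 and 0.0293) and Tcf21 (0.037 and 0.0205) did not. Nr5a1 and Amhr2 lay higher still in EpiLC, with means of 8.18 and 8.4 TPM. The endothelial and blood list summed to 103 to 105, 48.0 to 51.7, 20.0 to 20.8 and 141 to 150 TPM, nearly all from Pecam1, with Ptprc and Tyrobp at 0 in ESC and PGCLC_d3. The haemoglobin gene Hbb was at 0 in the other 6 libraries and at 4.81 and 11.3 TPM in PGCLC_d3ag3. Cdh5 (mean of 1.69 TPM in PGCLC_d3 and 0.289 in PGCLC_d3ag3) and Kdr (0.907 and 0.248) moved the other way. The part of these other cells in the results was not tested. Relative depth, read from the steps between the lowest values, ran from 1 in ESC replicate 1 to 1.5 in EpiLC replicate 2, and was 2.17 and 2.38 in PGCLC_d3ag3. The deposited sample numbers of PGCLC_d3ag3 do not follow those of the other groups. Any separate handling of its libraries could not be told apart from aggregation.

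The classes are set apart by the letters at their start sites. RefSeq promoter windows of the rat build GRCr8 were found for 57 cytosolic genes (58 windows) and 60 mitochondrial genes (62 windows). The sequences below run from 25 bases before the annotated start to 25 bases from it on, read 5′ to 3′ on the strand of the gene, and capitals mark the longest unbroken run of C and T. The cytosolic examples are Rplp0, the most abundant cytosolic gene with a window among those named for their level, and 5 genes whose levels differed between groups. The mitochondrial examples were chosen in the same way, and Rps4y2 is a paralog described below.
Rplp0 (chr12:46718366-46718415, minus strand): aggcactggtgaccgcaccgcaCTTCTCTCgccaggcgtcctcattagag
Rps18 (chr20:4933720-4933769, plus strand): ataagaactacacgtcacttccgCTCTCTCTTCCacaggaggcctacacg
Rps2 (chr10:14251823-14251872, plus strand): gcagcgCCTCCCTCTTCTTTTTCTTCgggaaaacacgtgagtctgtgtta
Rpl39 (chrX:121195872-121195921, minus strand): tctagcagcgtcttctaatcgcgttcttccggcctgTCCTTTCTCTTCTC
Rpl13 (chr19:68062489-68062538, plus strand): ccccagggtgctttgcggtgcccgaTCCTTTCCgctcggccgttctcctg
Rpl41 (chr7:1563473-1563522, minus strand): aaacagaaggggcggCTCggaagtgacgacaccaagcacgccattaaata
Mrps18b (chr20:2842981-2843030, plus strand): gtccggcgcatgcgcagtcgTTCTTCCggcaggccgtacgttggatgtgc
Mrpl23 (chr1:207116905-207116954, plus strand): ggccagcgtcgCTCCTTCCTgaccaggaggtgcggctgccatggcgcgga
Mrpl14 (chr9:22811209-22811258, minus strand): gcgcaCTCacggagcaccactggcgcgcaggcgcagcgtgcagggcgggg
Mrps26 (chr3:138222299-138222348, plus strand): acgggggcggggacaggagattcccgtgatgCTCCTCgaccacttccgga
Mrpl10 (chr10:82522445-82522494, plus strand): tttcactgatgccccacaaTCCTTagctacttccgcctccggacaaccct
Mrps23 (chr10:73496213-73496262, plus strand): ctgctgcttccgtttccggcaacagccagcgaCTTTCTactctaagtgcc
Rps4y2 (chr4:183000888-183000937, plus strand): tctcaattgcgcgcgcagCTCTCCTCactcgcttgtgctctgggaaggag

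The longest run of C and T near the start had a median of 11 bases in the cytosolic windows, against 5 in the mitochondrial windows and 5 in all 21851 protein-coding windows. Rps2 carries a run of 20 bases, and Rpl41 stands out among the printed cytosolic genes with a run of 3. Runs depend on the annotated starts, which were not checked. A run of at least 8 bases was found in 46 of 58 cytosolic windows (79.3%), 14 of 62 mitochondrial windows (22.6%) and 18.9% of protein-coding windows. The first 5 bases of the message were all C or T in 31 of 58 cytosolic windows (53.4%), 3 of 62 mitochondrial windows (4.84%) and 4.16% of protein-coding windows. At least 1 of 5 words, which overlap each other and were searched on the sense strand within 25 bases of the start (the word CTTTT or CTTTC, the word CCTTT or CTCTT, or the word TTCTTT), was found in 77.6% of cytosolic, 22.6% of mitochondrial and 18.5% of protein-coding windows.

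Other motifs, searched on both strands from 250 bases before to 50 after the start, were not more frequent in the cytosolic windows alone. The word CCAAT was less frequent there. The ETS word CCGGAAG was held by 34.5% of cytosolic and 33.9% of mitochondrial windows, against 10.7% of protein-coding windows of that length. The YY1 word ATGGCGG was held by 24.1% and 22.6%, against 6.0%. The word CCAAT was held by 22.4% of cytosolic and 43.5% of mitochondrial windows, against 38.0%. The NRF1 word GCATGCG was held by 6.9% and 9.68%, against 3.99%, the E-box CACGTG by 8.62% and 9.68%, against 7.02%, and the TATA word TATAAA by 10.3% and 12.9%, against 13.0%. These are matches of letters in windows and not sites of binding, and shares are given as descriptions.

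The classes differ in gene structure as well. In RefSeq 29 of 72 cytosolic genes (40.3%) hold a gene for a small nucleolar RNA, which guides the modification of ribosomal RNA, against 1 of 74 mitochondrial genes (1.35%) and 1.79% of protein-coding genes. RefSeq lists 1004 symbols named as copies or pseudogenes of the cytosolic genes, with a median of 14 a gene and at most 36, for Rps2. For the mitochondrial genes it lists 44, and 24 of the genes have any. How reads with several matches were counted is not given in the sources used here, so levels of cytosolic members can be shared with copies, and without strand information 59 members that overlap another gene in RefSeq are uncertain too.

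Cytosolic ribosomal protein messages took up a larger share of the RNA in both germ cell-like groups than in ESC and EpiLC. TPM is scaled by gene length, so levels of different genes can be set side by side. The summed level of the cytosolic class was 77675 and 71141 TPM in ESC, 75424 and 74216 in EpiLC, 89526 and 87425 in PGCLC_d3, and 97539 and 87818 in PGCLC_d3ag3. As a share of the summed TPM of named genes this was 7.57% ± 0.467 (SD, n = 2 libraries) in ESC, 7.61% ± 0.0849 in EpiLC, 9.0% ± 0.148 in PGCLC_d3 and 9.42% ± 0.707 in PGCLC_d3ag3. Every library of the germ cell-like groups lay above every library of the earlier groups, while ESC overlapped EpiLC and PGCLC_d3 overlapped PGCLC_d3ag3. From EpiLC to PGCLC_d3 the median log2 difference was 0.21 over the cytosolic class and 0.21 over all tested genes. A rise at that step is therefore not particular to the class. The sums leave out paralogs under other symbols, described below, of which Rpl39l, Rpl10l and Rps4y2 were lowest in PGCLC_d3.

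The mitochondrial class lay highest in PGCLC_d3ag3, where both libraries exceeded the other 6. It summed to 10065 and 9803 TPM in ESC, 9585 and 9387 in EpiLC, 9581 and 9723 in PGCLC_d3, and 12092 and 11707 in PGCLC_d3ag3. The shares were 1.01% ± 0.0163, 0.965% ± 0.0141, 0.982% ± 0.0099 and 1.21% ± 0.0283 (SD, n = 2) in the same order. The ratio of the cytosolic to the mitochondrial sum is the same whatever factor a library is scaled by. It was 7.72 and 7.26 in ESC, 7.87 and 7.91 in EpiLC, 9.34 and 8.99 in PGCLC_d3, and 8.07 and 7.5 in PGCLC_d3ag3, so both PGCLC_d3 libraries lay above the other 6. With 2 libraries a group these sums were not tested. The 13 protein genes of the mitochondrial genome, whose messages the mitochondrial ribosome translates, took 3.15% of summed TPM in ESC, 4.07% in EpiLC, 5.15% in PGCLC_d3 and 4.39% in PGCLC_d3ag3.

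**Figure D1:**
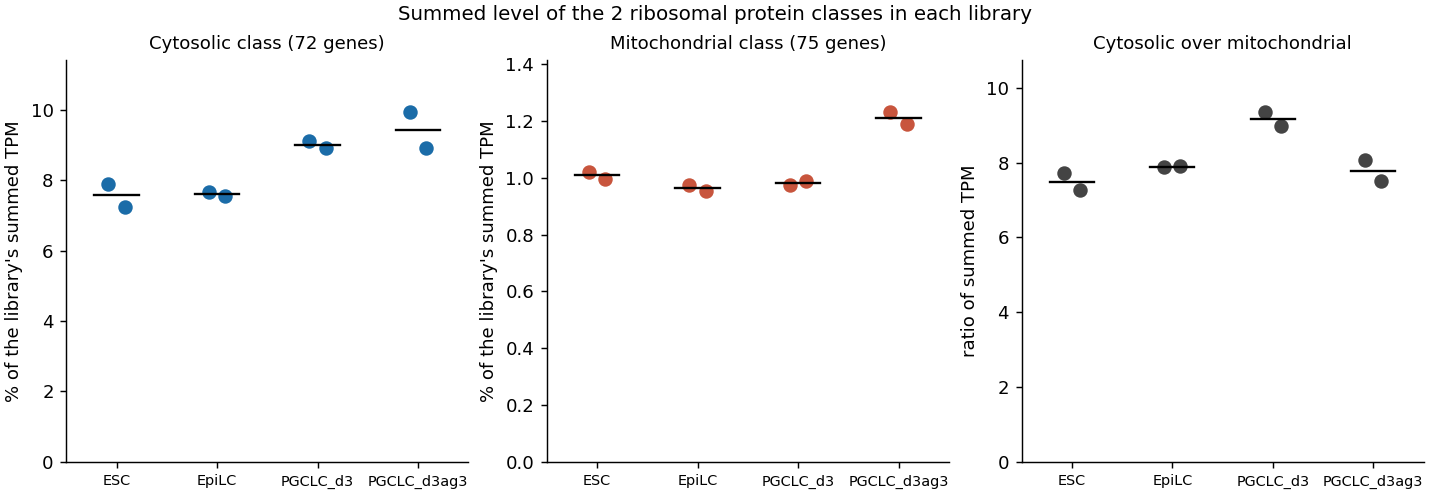
Share of each library's summed TPM taken by the 72 cytosolic and 75 mitochondrial genes, and the ratio of the cytosolic to the mitochondrial sum, for the 4 groups. Points are libraries and bars are group means of 2 libraries. The cytosolic share is higher in both PGCLC groups, the mitochondrial share is highest in PGCLC_d3ag3 at 1.21%, and the ratio is highest in PGCLC_d3 at 9.16.

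Within each class the genes covered a wide range of levels. The median cytosolic gene had a mean of 1161 TPM over the 8 libraries and the median mitochondrial gene 123 TPM, and 37 of the 100 highest genes of the table were cytosolic members. A mean of at least 100 TPM was reached by 70 cytosolic and 46 mitochondrial genes. Among the highest cytosolic means were those of Rpl27 (2510 TPM) and Rplp0 (2318), both of the large subunit, and Rplp0 is part of its stalk. The highest mitochondrial means were those of Mrps18b (388), Mrpl17 (364) and Mrpl12 (328). At the other end stood Rpl37 (4.25 TPM), Rpl7a (39.6) and Rpl21 (164) in the cytosolic class, and Mrpl43 (10.6), Mrpl40 (16.0) and Mrpl47 (27.3) in the mitochondrial class. RefSeq names 9 copies of Rpl37 and 21 of Rpl7a, and the part of these copies in their low listed levels was not tested.

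Mitochondrial genes varied more between groups than cytosolic genes. The highest group mean over the lowest had a median of 1.37 over the 72 cytosolic genes, and 56 of them stayed under 1.5. It had a median of 1.66 over the 73 tested mitochondrial genes, of which 26 stayed under 1.5 and 18 reached 2, against 5 cytosolic genes. Rpl22 varied least of the cytosolic genes, by 1.04 times, and Mrps11 least of the mitochondrial genes, by 1.09. The group with the highest mean was PGCLC_d3ag3 for 41 cytosolic and 45 mitochondrial genes. These ranges and counts are of the deposited scale only and shift with it. The same counts over all tested genes were not taken, so they are no trait of the members alone. Replicates of a group mostly lay close, with a median ratio of the higher to the lower library of 1.03 to 1.1 in either class. Ratios over 1.5 were found for Rpl37 (2.4 in ESC), Rpl7a (2.29 in PGCLC_d3 and 4.8 in PGCLC_d3ag3) and Mrpl43 (1.76 in EpiLC, 1.7 in PGCLC_d3 and 2.24 in PGCLC_d3ag3).

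Genes were tested with limma on the deposited log2(TPM+1) values of 13571 genes, and a gene is said to have risen or fallen where its Benjamini-Hochberg adjusted p was under 0.05. TPM values add up to the same total in every library, so a rise of some genes lowers the others. Results are therefore also given after median-of-ratios rescaling, which sets the median gene equal between libraries. The TPM values were divided by 0.910 and 0.952 in ESC, by 0.961 and 0.960 in EpiLC, by 1.151 and 1.163 in PGCLC_d3 and by 0.987 and 1.006 in PGCLC_d3ag3, so the PGCLC_d3 values are lowered most. The comparisons share groups and are not independent of each other.

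From ESC to EpiLC, which asks what changes on leaving naive pluripotency, few cytosolic genes passed the test and mitochondrial genes moved both ways. Of 72 cytosolic genes 11 rose, 8 fell and 53 did not pass, with a median log2 difference of 0.02, where 35.4% of all tested genes rose and 31.8% fell with a median of 0.04. Of 73 mitochondrial genes 21 rose and 24 fell, with a median of -0.06. After rescaling 3 cytosolic genes rose and 8 fell, 18 mitochondrial genes rose and 29 fell, and 33.7% of all genes rose and 34.1% fell. The cytosolic counts rested on single libraries: without ESC replicate 1 they were 18 and 1, without ESC replicate 2 they were 3 and 13, without EpiLC replicate 1 they were 5 and 3, and without EpiLC replicate 2 they were 4 and 2.

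Rps20, a small subunit gene, led the rises among well expressed cytosolic genes. Its levels were 839 and 770 TPM in ESC and 1154 and 1112 in EpiLC, a log2 difference of 0.49 (SE 0.099, limma adjusted p = 0.00147). The EpiLC libraries were both above the ESC libraries, as the rule for naming class members required. Rps12 was at 259 and 290 TPM in ESC and 333 and 343 in EpiLC, and Rpl24 at 1141 and 989 against 1254 and 1242, but both calls ended when single libraries were left out (limma adjusted p = 0.0781 for Rps12 without ESC replicate 1 and 0.147 for Rpl24 without ESC replicate 2). Rpl7a, at 11.9 and 13.2 TPM in ESC and 48.6 and 57.2 in EpiLC, passed with a log2 difference of 1.98 and a SE of 0.577 (limma adjusted p = 0.012). That call ended without either ESC library (limma adjusted p = 0.0718 and 0.0569). The falls given here were of the small subunit. Rps15 fell from 1454 and 1265 TPM to 1104 and 1141 (log2 -0.27), and Rps28 from 921 and 875 to 772 and 761 (log2 -0.23). Without ESC replicate 1 the calls of Rps15 and Rps28 ended (limma adjusted p = 0.122 and 0.063).

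Mitochondrial genes moved both ways at this step. Mrps23, of the small subunit, fell from 103 and 97.2 TPM in ESC to 35.0 and 33.1 in EpiLC, a log2 difference of -1.53 (SE 0.065, limma adjusted p = 2.6e-08). The EpiLC level is 0.34 times that of ESC, and the groups lie far apart. Mrpl54 fell from 329 and 322 TPM to 190 and 174 (log2 -0.84), Mrpl33 from 244 and 236 to 145 and 148 (log2 -0.71), and Mrpl42 from 359 and 374 to 230 and 238 (log2 -0.64), all of the large subunit. Rises were led in size by Mrpl43, whose libraries spread widely. It was listed at 6.1 and 6.92 TPM in ESC and 9.96 and 17.5 in EpiLC (limma adjusted p = 0.0421), and the call ended without EpiLC replicate 2 (limma adjusted p = 0.302) and after rescaling (0.0513). Mrpl57 rose from 71.5 and 59.4 TPM to 118 and 103 (log2 0.75), Mrps35 from 19.9 and 19.7 to 29.9 and 28.9 (log2 0.55), and Mrpl38 from 113 and 113 to 160 and 165 (log2 0.52).

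The step from EpiLC to PGCLC_d3 asks what changes as cells take on a germ cell-like state, and here the result depends on the scale. On the deposited scale 40 of 72 cytosolic genes rose and 7 fell, with a median of 0.21, but 47.3% of all tested genes rose and 27.6% fell with the same median of 0.21. Of 73 mitochondrial genes 28 rose and 22 fell, with a median of 0.09. After median-of-ratios rescaling 8 cytosolic genes rose and 21 fell (median -0.05), 10 mitochondrial genes rose and 35 fell (median -0.18), and 36.3% of all genes rose and 37.5% fell (median -0.02). Quantile normalization, which gives every library the same distribution of values, put the cytosolic median at 0.34 and the mitochondrial at -0.01. The mitochondrial median lay below the cytosolic by 0.13 on the deposited scale, a gap that a factor per library leaves almost unchanged by construction, and by 0.34 after quantile normalization. The 7 cytosolic falls were 4 without EpiLC replicate 1, without EpiLC replicate 2 or without PGCLC_d3 replicate 2.

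**Figure D2:**
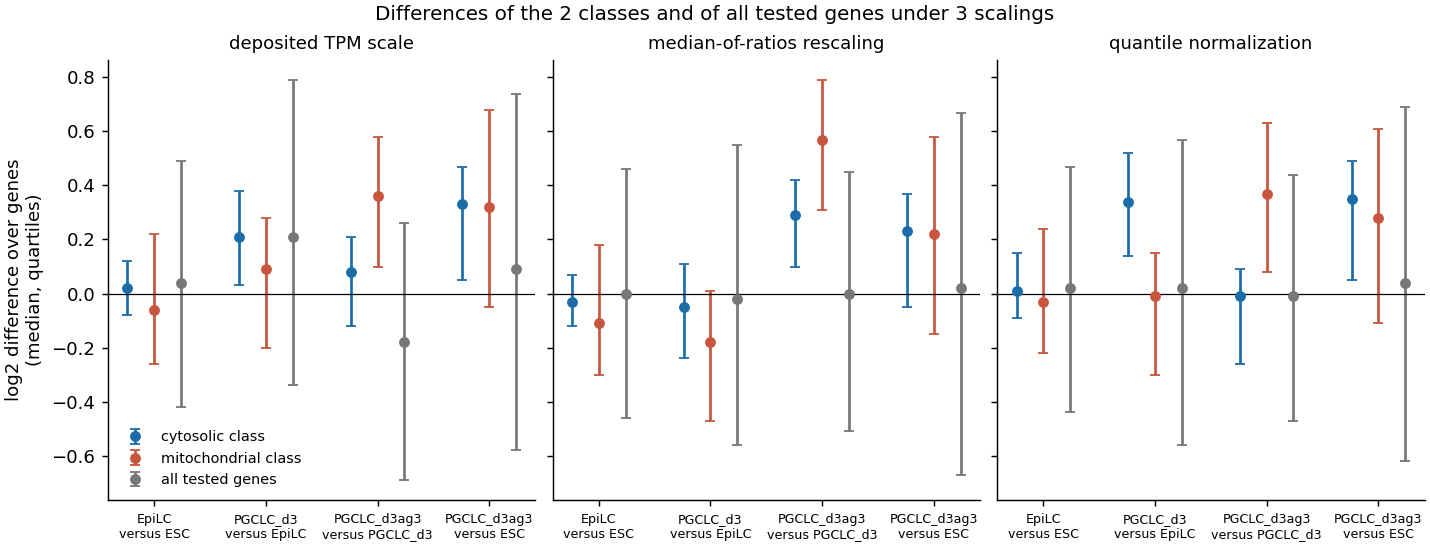
Median log2 difference (points) and quartiles over genes (bars) of the cytosolic class, the mitochondrial class and all tested genes in the 4 comparisons, on the deposited scale, after median-of-ratios rescaling and after quantile normalization. Bars show the spread over genes, not an error. For PGCLC_d3 versus EpiLC the cytosolic median is 0.21, -0.05 and 0.34 in turn, and for PGCLC_d3ag3 versus PGCLC_d3 the mitochondrial median is above 0 in each panel, at 0.36, 0.57 and 0.37.

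Individual cytosolic genes moved in opposite directions at this step. Rps18, of the head of the small subunit, was at 906 and 921 TPM in EpiLC and 1860 and 1804 in PGCLC_d3, a ratio of 2.01 and a log2 difference of 1.00 (SE 0.101, limma adjusted p = 9.88e-06). Rps14 rose from 1174 and 1136 TPM to 1927 and 1828 (log2 0.70), Rpl36a from 253 and 258 to 383 and 409 (log2 0.63), and Rps15a from 610 and 610 to 938 and 918 (log2 0.60). The largest fall was that of Rps2. It was at 477 and 430 TPM in EpiLC and 188 and 234 in PGCLC_d3, a log2 difference of -1.11 (SE 0.125, limma adjusted p = 2.17e-05). Rps29 fell from 2081 and 2215 TPM to 1453 and 1458 (log2 -0.56), Rpl39 from 316 and 330 to 225 and 225 (log2 -0.52), and Rps4x from 398 and 402 to 321 and 310 (log2 -0.34). In each of these genes the groups did not overlap, but the rule for naming them required this, so it adds no evidence.

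Mitochondrial members also moved apart at this step. Mrpl23, a protein at the exit of the peptide tunnel, was at 124 and 127 TPM in EpiLC and 469 and 500 in PGCLC_d3, a ratio of 3.87 and a log2 difference of 1.94 (SE 0.052, limma adjusted p = 1.36e-09). In PGCLC_d3ag3 it was at 518 and 509 TPM. Mrpl14 rose from 44.6 and 46.7 TPM to 81.9 and 84.0 (log2 0.85), Mrpl30 from 47.3 and 45.6 to 76.3 and 75.9 (log2 0.70), and Mrps6 from 112 and 103 to 157 and 165 (log2 0.58). Falls of similar size stood beside them. Mrps26 fell from 135 and 131 TPM to 52.8 and 48.5, a ratio of 0.381 and a log2 difference of -1.38 (SE 0.067, limma adjusted p = 5.95e-08). Mrpl10 fell from 84.8 and 89.4 TPM to 40.5 and 41.7 (log2 -1.06), Mrpl18 from 219 and 220 to 107 and 106 (log2 -1.03), and Mrpl46 from 137 and 137 to 70.7 and 69.5 (log2 -0.95). Genes of both subunits were among the rises and among the falls. Of 44 large subunit genes 16 rose (36.4%) and 13 fell (29.5%), and of 29 small subunit genes 12 rose (41.4%) and 9 fell (31.0%). Of all tested genes 47.3% rose and 27.6% fell. After rescaling the balance turned in both, with 6 rises and 21 falls in the large subunit and 4 and 14 in the small. The shares over all tested genes were then 36.3% and 37.5%.

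After 3 days with gonadal somatic cells far more mitochondrial genes rose than fell on each of the 3 scales. Comparing PGCLC_d3ag3 with PGCLC_d3, 50 of 73 mitochondrial genes rose and 4 fell, with a median log2 difference of 0.36, where 25.7% of all tested genes rose and 44.8% fell with a median of -0.18. Both subunits took part, with 30 rises among 44 large subunit genes and 20 among 29 small subunit genes. Of 72 cytosolic genes 24 rose and 12 fell, with a median of 0.08. After rescaling 62 mitochondrial genes rose and 2 fell (median 0.57), 46 cytosolic genes rose and 1 fell (median 0.29), and 35.2% of all genes rose and 35.2% fell. After quantile normalization 51 mitochondrial genes rose and 6 fell (median 0.37), while 15 cytosolic genes rose and 22 fell (median -0.01). The mitochondrial median lay above the cytosolic by 0.28 on the deposited scale and by 0.39 after quantile normalization. Beside these rises, the fibroblast, gonadal somatic and blood markers given above moved in the same comparison, some up and some down, and their part was not tested. Relative depth and any separate handling of the PGCLC_d3ag3 libraries could not be told apart from aggregation. Without PGCLC_d3 replicate 2 the cytosolic rises were 15 and the mitochondrial falls 2, and without PGCLC_d3ag3 replicate 1 the cytosolic falls were 19, with 43 to 51 mitochondrial rises over the libraries left out.

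Rises of the mitochondrial class were found in genes that had moved in different ways before. Mrpl14 rose further, from 81.9 and 84.0 TPM in PGCLC_d3 to 188 and 161, a ratio of 2.11 and a log2 difference of 1.06 (SE 0.078, limma adjusted p = 2.02e-06). Mrpl50 rose from 78.5 and 78.5 TPM to 166 and 151 (log2 1.01), Mrps22, of the small subunit, from 105 and 106 to 210 and 196 (log2 0.94), and Mrpl40 from 13.0 and 13.9 to 27.7 and 23.0 (log2 0.86). Mrpl18, which had fallen at the step before, rose from 107 and 106 TPM to 182 and 179, below its 235 and 242 TPM in ESC. Mrpl42 rose from 243 and 236 TPM to 371 and 394 and so came back to the 359 and 374 TPM of ESC.

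The 4 falls were those of Mrps34, Mrpl38, Mrps2 and Mrpl27. Mrps34, a protein with no bacterial counterpart, went from 198 and 200 TPM in PGCLC_d3 to 77.3 and 65.8, a ratio of 0.359 and a log2 difference of -1.47 (SE 0.082, limma adjusted p = 3.6e-07). It had been at 164 to 211 TPM in all 6 libraries of the other groups. Mrpl38 fell from 127 and 126 TPM to 84.4 and 93.5 (log2 -0.51). Mrps2 (log2 -0.25) and Mrpl27 (log2 -0.17) lost their calls after rescaling (limma adjusted p = 0.703 and 0.615, with Mrpl27 then at 0.04), and without PGCLC_d3 replicate 2 (limma adjusted p = 0.207 and 0.195).

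**Figure D3:**
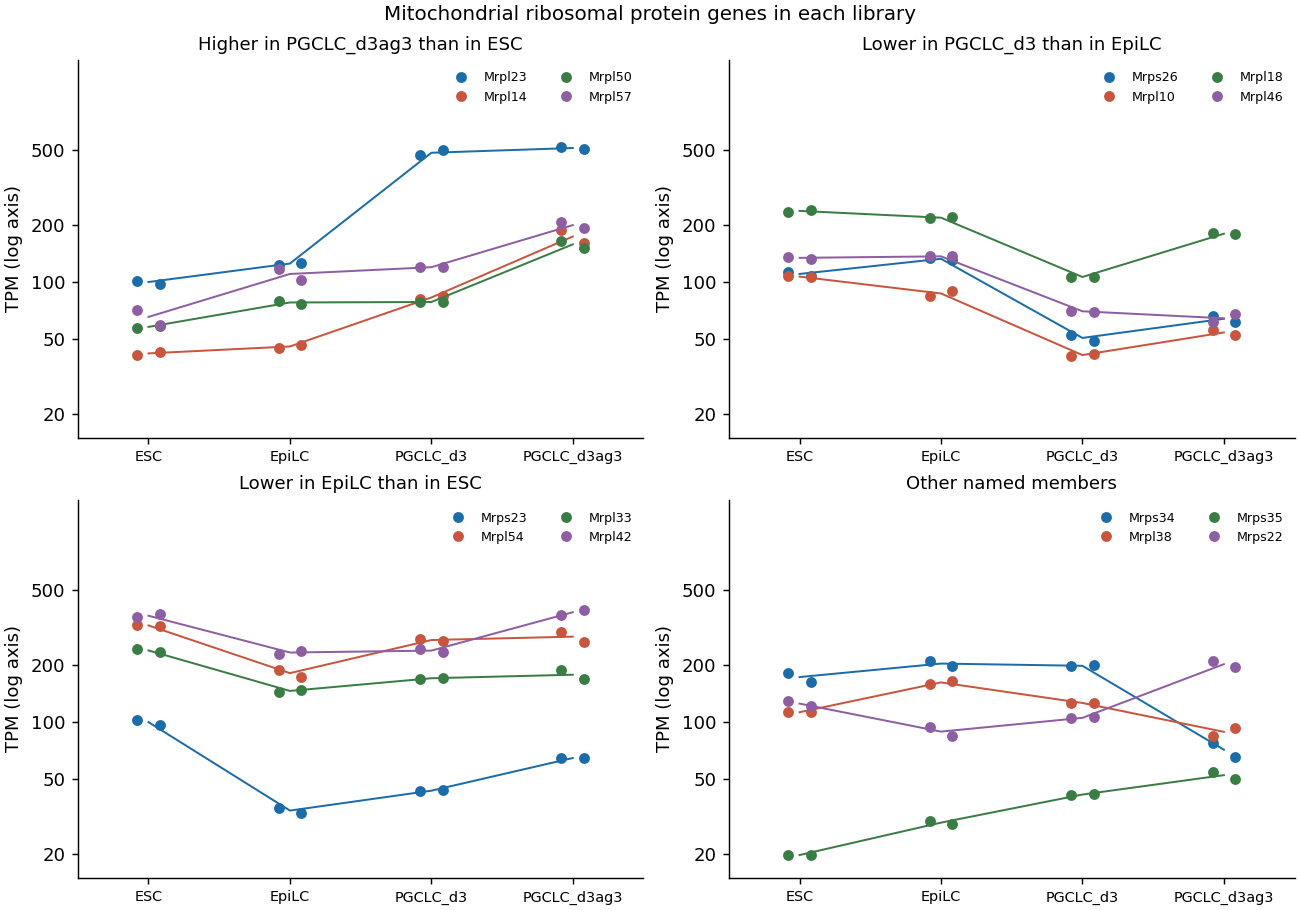
TPM of 16 named mitochondrial ribosomal protein genes in each of the 8 libraries on a log axis, in 4 panels of 4 genes. Points are libraries and lines join group means of 2 libraries. Mrpl23 lies at 469 to 518 TPM in both PGCLC groups and at 98.3 to 127 before, and Mrps34 lies at 65.8 and 77.3 TPM in PGCLC_d3ag3 alone.

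Cytosolic genes moved both ways in PGCLC_d3ag3. Rpl13 was at 1053 and 1258 TPM in PGCLC_d3 and 1843 and 1573 in PGCLC_d3ag3 (log2 0.56, SE 0.105, limma adjusted p = 0.000881). Rps21 rose from 1069 and 1031 TPM to 1608 and 1384 (log2 0.51), and Rpl27 from 2292 and 2243 to 3294 and 2940 (log2 0.46). Rpl37, the lowest member, was at 0.975 to 2.9 TPM in the other 6 libraries and at 11.1 and 10.4 in PGCLC_d3ag3 (log2 1.96), where the low level keeps the log2(TPM+1) difference below that of the TPM values. Rpl41 fell from 1858 and 1816 TPM to 1171 and 998, a log2 difference of -0.76 (SE 0.072, limma adjusted p = 1.02e-05). Rpl39 fell from 225 and 225 TPM to 191 and 163 (log2 -0.35), the stalk gene Rplp1 from 1522 and 1492 to 1209 and 1163 (log2 -0.35), and Rpl28 from 354 and 353 to 302 and 257 (log2 -0.34). After rescaling these 3 no longer passed (limma adjusted p = 0.186, 0.109 and 0.268).

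Set against ESC, more genes of both classes were higher in PGCLC_d3ag3 than lower. Of 72 cytosolic genes 47 were higher and 7 lower, with a median of 0.33, and of 73 mitochondrial genes 44 were higher and 16 lower, with a median of 0.32. Of all tested genes 42.5% were higher and 34.8% lower, with a median of 0.09. After rescaling the counts were 37 and 10 for the cytosolic class (median 0.23) and 38 and 18 for the mitochondrial class (median 0.22), where 39.4% of all genes were higher and 38.4% lower. The mitochondrial median lay below the cytosolic by 0.01 on the deposited scale and by 0.07 after quantile normalization. Mrpl23 stood 5.13 times above its ESC level (log2 2.35, SE 0.052, limma adjusted p = 3.42e-10), Mrpl14 4.16 times (log2 2.03), Mrpl57 3.06 times (log2 1.61) and Mrpl34 2.86 times (log2 1.5). Lower than in ESC were Mrps34 (log2 -1.27), Mrpl46 (log2 -1.06), Mrpl10 (log2 -0.97) and Mrps26 (log2 -0.78). Among cytosolic genes Rpl13 was 2.05 times as high as in ESC, Rpl36a 1.7 times and Rps24 1.66 times, while Rps2 was at 0.444, Rpl39 at 0.551 and Rpl13a at 0.738 times its ESC level.

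Some cytosolic ribosomal proteins have a paralog under another symbol, outside the counts above, and here lay the largest change. Rpl39l, a paralog of Rpl39 known from stem cells and the male germ line, was at 1256 and 1114 TPM in ESC, 887 and 724 in EpiLC, 15.9 and 16.3 in PGCLC_d3, and 632 and 540 in PGCLC_d3ag3. The log2 difference was -5.55 (limma adjusted p = 2.1e-10) from EpiLC to PGCLC_d3 and 5.10 (limma adjusted p = 2.06e-09) from there to PGCLC_d3ag3. Rpl39 itself stayed between 163 and 331 TPM. Rpl39l thus made up 79.2% and 78.2% of the summed TPM of Rpl39 and Rpl39l in ESC, 6.61% and 6.78% in PGCLC_d3, and 76.8% and 76.9% in PGCLC_d3ag3. The sum of both genes fell from 1203 and 1053 TPM in EpiLC to 241 and 241 in PGCLC_d3.

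Another 2 paralogs were lowest in PGCLC_d3 as well. Rpl10l, a paralog of the X-linked Rpl10 that is known to take its place in male meiosis, was at 392 and 334 TPM in ESC, 333 and 298 in EpiLC, 43.3 and 35.9 in PGCLC_d3, and 204 and 206 in PGCLC_d3ag3, with log2 differences of -2.97 and 2.35 at the last 2 steps (limma adjusted p = 5.6e-09 and 8.13e-08). Rps4y2, a paralog of Rps4x, was at 1291 and 1230, 1334 and 1292, 481 and 440, and 1199 and 1074 TPM in the same order (log2 -1.51 and 1.3, limma adjusted p = 3.06e-08 and 2.21e-07). The PGCLC_d3 libraries were the lowest in all 3 genes and did not overlap the other groups. Rps4y2 supplied 76.3% to 77.8% of the summed TPM of Rps4x and Rps4y2 in ESC and EpiLC and 59.9% and 58.6% in PGCLC_d3. Rps27l also fell, from 911 and 848 TPM to 510 and 557 (log2 -0.72), and rose again to 715 and 732 (log2 0.44), and Rpl36al fell from 425 and 414 TPM to 328 and 316 (log2 -0.38) while Rpl36a rose. Reads of near-identical copies may have been split between genes, so the levels of a member and its paralog are uncertain.

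**Figure D4:**
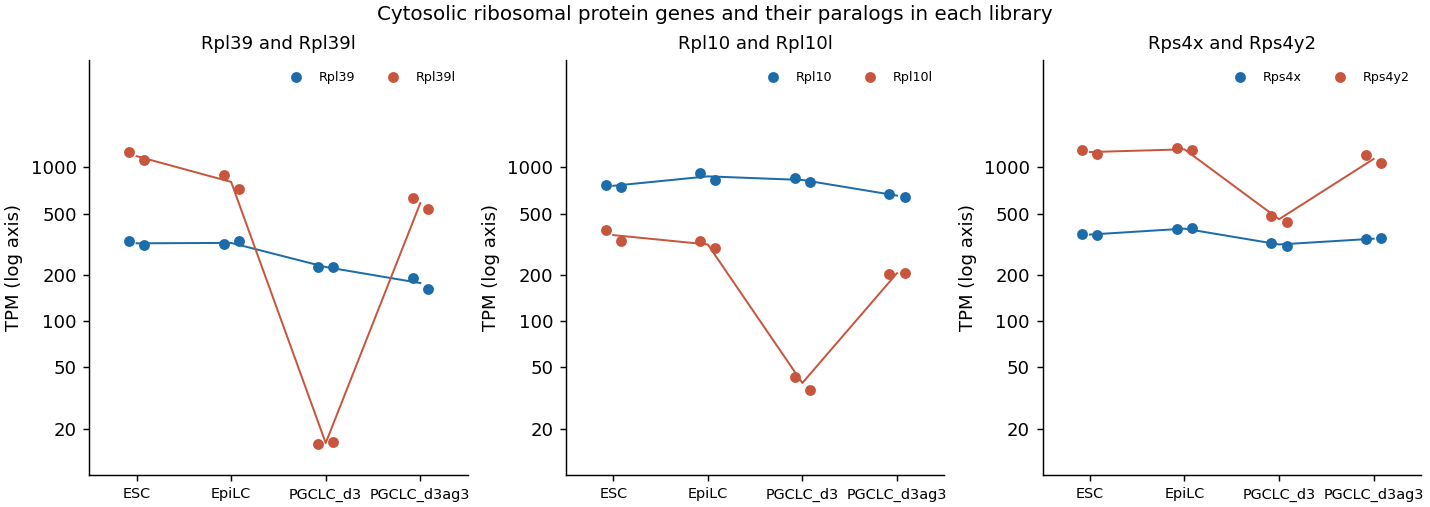
TPM of Rpl39 and Rpl39l, Rpl10 and Rpl10l, and Rps4x and Rps4y2 in each of the 8 libraries, on a log axis. Points are libraries and lines join group means of 2 libraries. The 3 paralogs, drawn in red, are lowest in PGCLC_d3, with Rpl39l at 15.9 and 16.3 TPM there, whereas Rpl39 stays between 163 and 331 TPM.

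Of 12 tested paralogs and ribosomal proteins with other symbols, 3 rose and 1 fell in EpiLC against ESC, 1 rose and 7 fell in PGCLC_d3 against EpiLC, 5 rose and 1 fell in PGCLC_d3ag3 against PGCLC_d3, and 2 rose and 6 fell in PGCLC_d3ag3 against ESC. Over all genes the rises were 35.4%, 47.3%, 25.7% and 42.5% and the falls 31.8%, 27.6%, 44.8% and 34.8%. The medians of these genes were 0.02, -0.40, 0.06 and -0.18. Fau, which encodes a ribosomal protein fused to a ubiquitin-like protein, did not pass at either germ cell-like step (log2 0.01 and -0.15). Rsl1d1, a nucleolar protein, rose in EpiLC (log2 0.88) and fell in PGCLC_d3 (log2 -1.16), and Rpl22l1 rose in EpiLC (log2 0.31). Against ESC, the 2 rises in PGCLC_d3ag3 were 0 without ESC replicate 2, without PGCLC_d3ag3 replicate 1 and after rescaling. The 6 falls were 3 without PGCLC_d3ag3 replicate 2. Adding members that miss the symbol rule could change the class counts only by those few genes. With Rpsa and 6 further symbols added, 42 cytosolic and 30 mitochondrial genes rose in PGCLC_d3 against EpiLC, and 51 mitochondrial genes rose in PGCLC_d3ag3 against PGCLC_d3. Of these genes, 2 are given here after their values were seen. Rpsa, of the small subunit, was at 1111 and 1094 TPM in EpiLC and 1705 and 1632 in PGCLC_d3, and mrpl24 at 85.2 and 87.8 TPM in PGCLC_d3 and 195 and 181 in PGCLC_d3ag3.

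Most genes that build the cytosolic ribosome rose from ESC to EpiLC. In EpiLC against ESC, 43 of 60 cytosolic ribosome assembly genes rose and 4 fell, with a median of 0.37, where 35.4% of all tested genes rose and 31.8% fell and 11 of 72 cytosolic protein genes rose. Ddx21, a nucleolar RNA helicase, rose from 41.7 and 45.4 TPM to 103 and 107 (log2 1.25, limma adjusted p = 5.01e-07), and Mdn1, a large ATPase of 60S assembly, from a mean of 10.2 TPM to 19.3 (log2 0.87). Eif6, which keeps free large subunits from joining small ones, fell from a mean of 461 TPM to 330 (log2 -0.48), and Gnl3l fell with log2 -0.30, a call that ended without ESC replicate 2 (limma adjusted p = 0.0525). The 4 falls were 1 without ESC replicate 2 and 2 without EpiLC replicate 1. Of 15 genes of ribosomal RNA synthesis 10 rose and 3 fell, with a median of 0.35. Polr1g, a subunit of RNA polymerase I, rose (log2 0.89), as did Taf1d (log2 0.64), and the subunit genes Polr1d and Polr1h fell (log2 -1.04 and -0.62).

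At the next step assembly genes moved in both directions. In PGCLC_d3 against EpiLC 18 of 60 rose and 26 fell, where 47.3% of all genes rose and 27.6% fell. After rescaling 6 rose, where 36.3% of all genes rose and 37.5% fell. Ddx21 fell from 103 and 107 TPM to 29.0 and 31.6 (log2 -1.76, limma adjusted p = 3.91e-08) and Utp15, of the small subunit processome, from 81.3 and 89.6 to 39.9 and 40.3 (log2 -1.07), while Ddx10 (log2 0.99) and the kinase gene Riok1 (log2 0.87) rose. In PGCLC_d3ag3 against PGCLC_d3 15 rose and 25 fell, close to the 25.7% and 44.8% of all genes. There were 27 rises after rescaling, where 35.2% of all genes rose. Utp20 fell (log2 -1.38), as did Tcof1, which encodes the nucleolar protein treacle, from 111 and 117 TPM to 55.7 and 51.6 (log2 -1.07), and Nop10 (log2 0.63) and Nop16 (log2 0.50) rose. Against ESC, 26 were higher and 19 lower in PGCLC_d3ag3 (42.5% and 34.8% of all genes), with Utp3 at log2 1.04 and Utp15 at -1.17. The counts of rises were 11 without PGCLC_d3 replicate 2 at the first of these steps and 8 without PGCLC_d3 replicate 1 at the second. The ribosomal RNA synthesis list had 7 rises and 4 falls, 4 and 6, and 7 and 4 in these 3 comparisons in turn, to be read against the same shares over all genes, with medians of 0.10, -0.11 and 0.12. Polr1a, the largest subunit of RNA polymerase I, went from 73.3 and 80.0 TPM in PGCLC_d3 to 26.5 and 27.1 in PGCLC_d3ag3 (log2 -1.48), and Polr1e rose (log2 0.61). For this list the 7 rises in PGCLC_d3 were 2 after rescaling, 3 after quantile normalization, and 4 without EpiLC replicate 1 or PGCLC_d3 replicate 2, and the 4 rises in PGCLC_d3ag3 against PGCLC_d3 were 2 without either PGCLC_d3 library.

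Of 37 tested cytosolic translation factors 17 rose and 3 fell in EpiLC against ESC (35.4% and 31.8% of all genes), 13 rose and 15 fell in PGCLC_d3 against EpiLC (47.3% and 27.6%), 10 rose and 20 fell in PGCLC_d3ag3 against PGCLC_d3 (25.7% and 44.8%), and 16 rose and 15 fell in PGCLC_d3ag3 against ESC (42.5% and 34.8%). The medians of the list were 0.12, -0.06, -0.14 and 0.03, against 0.04, 0.21, -0.18 and 0.09 over all genes. The 17 rises were 11 without ESC replicate 2 and 10 after rescaling. The 13 rises were 4 after rescaling, with 24 falls in place of 15. Over all genes the rescaled shares were 36.3% and 37.5% at that step, with 33.7% rising in EpiLC against ESC. The elongation factor genes Eef1a1 and Eef2 rose in PGCLC_d3, Eef1a1 from 929 and 993 TPM to 1803 and 1727 (log2 0.88) and Eef2 from 1022 and 1070 to 1891 and 1861 (log2 0.84). Both then fell in PGCLC_d3ag3, to 1118 and 1162 TPM (log2 -0.63) and 1026 and 1102 TPM (log2 -0.82). Eif4ebp1, an mTOR-controlled inhibitor of the cap-binding protein, fell from 996 and 979 TPM in EpiLC to 655 and 690 in PGCLC_d3 and 210 and 215 in PGCLC_d3ag3, a log2 difference of -2.14 against ESC (limma adjusted p = 2.85e-09). Eif4g1, the scaffold of the cap-binding complex, fell from 132 and 138 TPM to 78.7 and 78.2 and then 39.7 and 44.3. On the deposited scale Eif4e, the cap-binding protein itself, rose at both steps (log2 0.37 and 0.53), and Eif5b rose in PGCLC_d3ag3 (log2 1.16).

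Most translation factors of the mitochondrial ribosome rose in PGCLC_d3. Of 14 mitochondrial translation factors 2 rose and 6 fell in EpiLC against ESC, 11 rose and 1 fell in PGCLC_d3 against EpiLC, 4 rose and 2 fell in PGCLC_d3ag3 against PGCLC_d3, and 9 rose and 2 fell in PGCLC_d3ag3 against ESC. Over all genes the rises and falls were 35.4% and 31.8%, 47.3% and 27.6%, 25.7% and 44.8%, and 42.5% and 34.8% in this order. The medians of the list were 0.04, 0.67, -0.06 and 0.64. Mtfmt, which formylates the initiator transfer RNA, went from 22.1 and 22.6 TPM in EpiLC to 59.8 and 62.6 in PGCLC_d3 (log2 1.41, limma adjusted p = 1.6e-07) and 75.6 and 85.5 in PGCLC_d3ag3. The initiation factor gene Mtif2 rose with it (log2 1.25), and Gfm1, an elongation factor, was the fall (log2 -0.66). Tufm, another elongation factor, and Tsfm, its exchange factor, rose in PGCLC_d3ag3 (log2 0.34 and 0.78). Oxa1l, which inserts proteins into the inner membrane, fell there (log2 -0.37) and did not pass after rescaling (limma adjusted p = 0.147), and Mrrf fell there (log2 -0.48) and did not pass after quantile normalization (limma adjusted p = 0.217).

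Of 24 mitochondrial ribosome assembly genes 7 rose and 9 fell in EpiLC against ESC, 14 rose and 4 fell in PGCLC_d3 against EpiLC, 9 rose and 7 fell in PGCLC_d3ag3 against PGCLC_d3, and 11 rose and 7 fell in PGCLC_d3ag3 against ESC. Medians were -0.06, 0.38, 0.11 and 0.13. Against the shares over all genes (rises of 35.4%, 47.3%, 25.7% and 42.5% and falls of 31.8%, 27.6%, 44.8% and 34.8%), the counts in EpiLC and those against ESC lay near the background. Grsf1, an RNA-binding protein of mitochondrial RNA granules, was at 605 and 613 TPM in ESC, 54.1 and 55.3 in EpiLC, 463 and 436 in PGCLC_d3, and 260 and 284 in PGCLC_d3ag3. EpiLC lay far below the other groups, with log2 differences of -3.45 and 3.02 at its 2 steps (limma adjusted p = 1.04e-10 and 2.27e-10). The GTPase gene Gtpbp10, of large subunit assembly, rose from 77.8 and 72.7 TPM in EpiLC to 176 and 178 (log2 1.22). Dhx30, an RNA helicase, and Mrm1, a methyltransferase of ribosomal RNA, rose in EpiLC (log2 1.04 and 1.27) and fell in PGCLC_d3ag3 against PGCLC_d3 (log2 -0.72 and -1.18). The 14 rises were 9 after rescaling, with 10 falls in place of 4, where 36.3% of all genes rose and 37.5% fell. The 9 falls in EpiLC were 5 without EpiLC replicate 2, and the 9 rises in PGCLC_d3ag3 were 5 without either PGCLC_d3 library or without PGCLC_d3ag3 replicate 2. Of 5 mitochondrial ribosomal proteins with other symbols 4 rose and 0 fell, 1 rose and 2 fell, 3 rose and 1 fell, and 3 rose and 1 fell in the same order of comparisons. The 4 rises were 2 without EpiLC replicate 1, and the 1 rise was 0 without PGCLC_d3 replicate 2. Dap3, of the small subunit, was at 60.9 and 60.1 TPM in ESC, 88.3 and 95.6 in EpiLC, 101 and 102 in PGCLC_d3, and 114 and 117 in PGCLC_d3ag3.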

How the data were processed

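Expression was measured by RNA sequencing in 4 groups of 2 libraries, grouped and numbered by their titles. The kits were PicoPure for RNA and SMART-Seq v4 with KAPA Hyper Prep for libraries, per the labels' protocols. Per the submitters' processing notes, reads were handled with bcl2fastq 2.20, cutadapt 1.1.6, HISAT2 2.1.0 on rn7 and featureCounts of Subread 1.6.5. The strand setting, the annotation and the treatment of reads with several matches are not given in the sources used here.

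The authors deposited log2(TPM+1) per gene and library. These log2 values were turned back to TPM for levels. The table holds 22228 named genes and 11066 rows without a name, which were left out. TPM keeps no read totals, so depth is relative only, from the steps between low values.

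The 13571 genes that reached 1 TPM in 2 or more libraries were fitted with limma 3.58.1 (lmFit and eBayes with trend, 2-sided) in R 4.3.3, with all 4 groups in 1 fit (4 residual degrees of freedom). The fit was also run on simulated data with planted differences, whose outcome is not given here. Alternatives were median-of-ratios rescaling, quantile normalization, scaling without the cytosolic genes, a pseudocount of 0.1, no filter, TPM of at least 5, a replicate block, each library left out and, added after seeing the data, a wider set of symbols.

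The members and the gene lists were chosen with earlier results of these data known. Named genes are, for each comparison and class, up to 4 rises and 4 falls that passed the test, did not overlap between groups and had a mean of 10 TPM or more in the higher group, the 3 highest and 3 lowest members of a class, members with paralogs, and up to 2 rises and 2 falls from each list. The lists are ribosomal RNA synthesis, cytosolic ribosome assembly, cytosolic translation factors, mitochondrial ribosome assembly, mitochondrial translation factors, mitochondrial ribosomal proteins with other symbols, and ribosomal protein paralogs with other symbols, beside marker lists for ESC, EpiLC, PGCLC, gonadal germ cells, fibroblasts, gonadal somatic cells, and endothelium and blood. The symbols Rpl35a, Rpl37a, Rps9 and Rps19 fit the symbol rule but are not among the named genes under that spelling, so they were not analysed. A few genes named by the rule for naming are left out of the text. RefSeq names and promoter windows are of GRCr8, a build other than that of the files. By symbol 146 of 147 members matched, all but Mrps36.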

Additional observations from a re-analysis of the deposited data

How the results depend on the processing

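Directions and calls depended on the scale, and counts of calls also on single libraries. In PGCLC_d3 against EpiLC, median-of-ratios rescaling turned the class medians to -0.05 (cytosolic) and -0.18 (mitochondrial). It gave 8 cytosolic rises and 21 falls, 10 mitochondrial rises and 35 falls, and 31 rises and 94 falls over the 7 lists. On that scale 36.3% of all tested genes rose and 37.5% fell. Quantile normalization gave medians of 0.34 and -0.01 there, 4 cytosolic falls and 18 mitochondrial rises. Scaling without the cytosolic genes, and no filter, also gave 4 cytosolic falls. In PGCLC_d3ag3 against PGCLC_d3, rescaling gave medians of 0.29 and 0.57, 46 cytosolic rises and 1 fall, 2 mitochondrial falls and 78 rises over the 7 lists. The rescaled shares over all tested genes were 35.2% for rises and 35.2% for falls. Quantile normalization gave a cytosolic median of -0.01 with 15 rises and 22 falls, and no filter gave 2 mitochondrial falls. In EpiLC against ESC, rescaling gave 3 cytosolic rises and a mitochondrial median of -0.11, and no filter gave 4 cytosolic falls. Against ESC, PGCLC_d3ag3 had medians of 0.23 (cytosolic) and 0.22 (mitochondrial) after rescaling. Rescaling also turned the difference of Gadd45gip1 in PGCLC_d3 against EpiLC to -0.02 and that of Mrpl27 in PGCLC_d3ag3 against PGCLC_d3 to 0.04. The cause of these shifts beyond the scale itself was not tested. Without the genes of the mitochondrial genome the cytosolic share was 7.94% in EpiLC and 9.49% in PGCLC_d3, and the mitochondrial share 1.04%, 1.0%, 1.04% and 1.27% in ESC, EpiLC, PGCLC_d3 and PGCLC_d3ag3.

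With each library left out in turn, where a group keeps a lone library that is assumed to vary like the others, EpiLC against ESC had 3 to 18 cytosolic rises and 1 to 13 falls. PGCLC_d3 against EpiLC had 4 to 8 cytosolic falls. PGCLC_d3ag3 against PGCLC_d3 had 15 to 30 cytosolic rises, 8 to 19 falls, 2 to 4 mitochondrial falls, a mitochondrial median of 0.29 to 0.37 and 31 to 49 rises over the lists. PGCLC_d3ag3 against ESC had a cytosolic median of 0.23 to 0.39. A fit with the replicate number as a block kept every class count within 1.5 times, with 31 cytosolic rises and 15 falls and 50 mitochondrial rises and 5 falls in PGCLC_d3ag3 against PGCLC_d3, and it ended the call of Mrpl43 in EpiLC against ESC (limma adjusted p = 0.0541). Deviations of same-numbered libraries correlated by -0.0374 to 0.0662 across genes, so the numbers were not taken to pair samples. A pseudocount of 0.1 and TPM of at least 5 changed no class count by over 1.5 times. Of the values of single genes and lists, 3214 kept direction and side of the threshold or moved little. Of the rest 73 lost their call under an alternative, 56 moved and 2 reversed. Of the class counts, class medians, totals over the lists and shares, 476 stayed the same, 48 moved and 4 reversed. These totals include fits that left out a library of neither compared group, where the difference itself cannot change. Depth is known only relative to other libraries, so no limit from it is given for single genes.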
